A study of Mus musculus with 6 samples.

Results

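The nuclear-coded subunits of the mitochondrial respiratory chain were taken by symbol: names beginning Nduf followed by a, b, c, s or v and a digit for complex I, Sdha to Sdhd for complex II, names beginning Uqcr for complex III, and Cox4 to Cox8 for complex IV. Among 22180 genes measured through a transcript cluster with a single gene symbol, 62 matched. By symbol alone, 33 sort with complex I, 4 with complex II, 8 with complex III and 17 with complex IV. RNA came from halved kidneys of adult mice and was hybridised to Affymetrix Mouse Gene 2.1 ST arrays, 1 per sample. The knockout group, labelled Pax28 dKO, came from mice homozygous for floxed Pax2 and Pax8 alleles with the tamoxifen-inducible Rosa26CreER, a Cre recombinase that is not restricted to a kidney cell type. Control mice were Cre negative and received the same tamoxifen, 50 mg/kg intraperitoneally on 3 consecutive days from an age of 8 weeks, with a second course at 10 weeks and kidneys harvested 14 days after the final dose. Each group held 3 arrays, from 2 females and 1 male. Knockout arrays are numbered 1, 3 and 5 and controls 2, 4 and 6, with knockout 1 and control 4 from the males. The labels give the sex behind each array but no animal number, so females of a group are not stated to be separate mice, and p-values reflect only how far these samples spread, which may be in part technical.

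The respiratory chain passes electrons from NADH and succinate to oxygen and pumps protons across the inner mitochondrial membrane. Complex I oxidises NADH, complex II oxidises succinate, complex III hands electrons to cytochrome c and complex IV reduces oxygen. Kidney tubules, above all the proximal tubule and the thick ascending limb, are dense in mitochondria and depend on this pathway for active transport. Several complex IV subunits exist as isoforms from separate genes, with a widely expressed form and a second form best known from heart and skeletal muscle, testis, lung or brown fat.

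Across the 22180 genes, 1596 passed an adjusted p of 0.05 between the groups in a limma model with genotype and sex, 683 lower and 913 higher on the arrays labelled knockout. Kidney identity was plain, with the proximal tubule phosphate transporter Slc34a1 between 11.29 and 11.84 log2 on all 6 arrays. Slc34a1 was itself called lower on the knockout-labelled arrays, by -0.47 ± 0.08 (SE; limma adjusted p = 0.022), and its groups did not overlap. The targeted genes did not fall: Pax8 stood 1.36 ± 0.12 (SE) log2 higher on the arrays labelled knockout (limma adjusted p = 0.0037) and Pax2 0.27 ± 0.10 higher (adjusted p = 0.19). An exact permutation test, two-sided, gave p = 0.1 for either gene, and no smaller p is possible with 3 arrays a group. The deleted exons are not named in the labels and these clusters may lie outside them, and every direction given here is that of the arrays labelled knockout. Ucp1, the brown adipocyte uncoupling protein, was high on control 2 (7.77 log2) and control 6 (7.53), while the remaining arrays ranged from 3.53 to 5.12, and a limma fit without that pair called 0 of 22180 genes (2329 at an unadjusted p under 0.05). That fit keeps 1 control array, the male control 4, so each genotype difference in it equals knockout 1 minus control 4. It has 1 residual degree of freedom, and control 4 is assumed to vary like the others. Every genotype call given here is lost in it, but with a single control it cannot tell whether controls 2 and 6 carried the calls.

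Respiratory chain subunits leaned slightly low on the arrays labelled knockout, and few single genes passed. Of the 62, 4 fell and none rose: the cytochrome c oxidase isoform Cox6a2 and the complex I subunits Ndufv3, Ndufb8 and Ndufa5. That is 6.45% of members, close to the 7.2% of all genes called in either direction. By direction, 3.08% of all genes fell and 4.12% rose. The fitted difference was below 0 in 54 of 62 members (87.1%), against 51.6% of all genes, and the median log2 difference was -0.12, against -0.01 over all genes. All 3 knockout-labelled arrays lay below all 3 controls for 16 members (25.8%), where 10.8% of all genes showed that order, and the reverse order held for 0 members against 11.7% of all genes. At an unadjusted limma p under 0.05, 12 of 62 members were lower and 1 was higher, against 2324 and 2564 of all 22180 genes. Members are mostly abundant transcripts, and 59 of 62 lay at or above 3.32 log2, the 40th percentile of all clusters and the limit used here for dim genes. Among the 15047 genes at or above that limit, 4.33% fell, 12% had the lower order without overlap and 48.1% were fitted below 0, while the 59 members gave 6.78%, 25.4% and 88.1%. The sizes were small: apart from Cox6a2, fitted differences ran from -0.44 to 0.44.

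**Figure D1:**
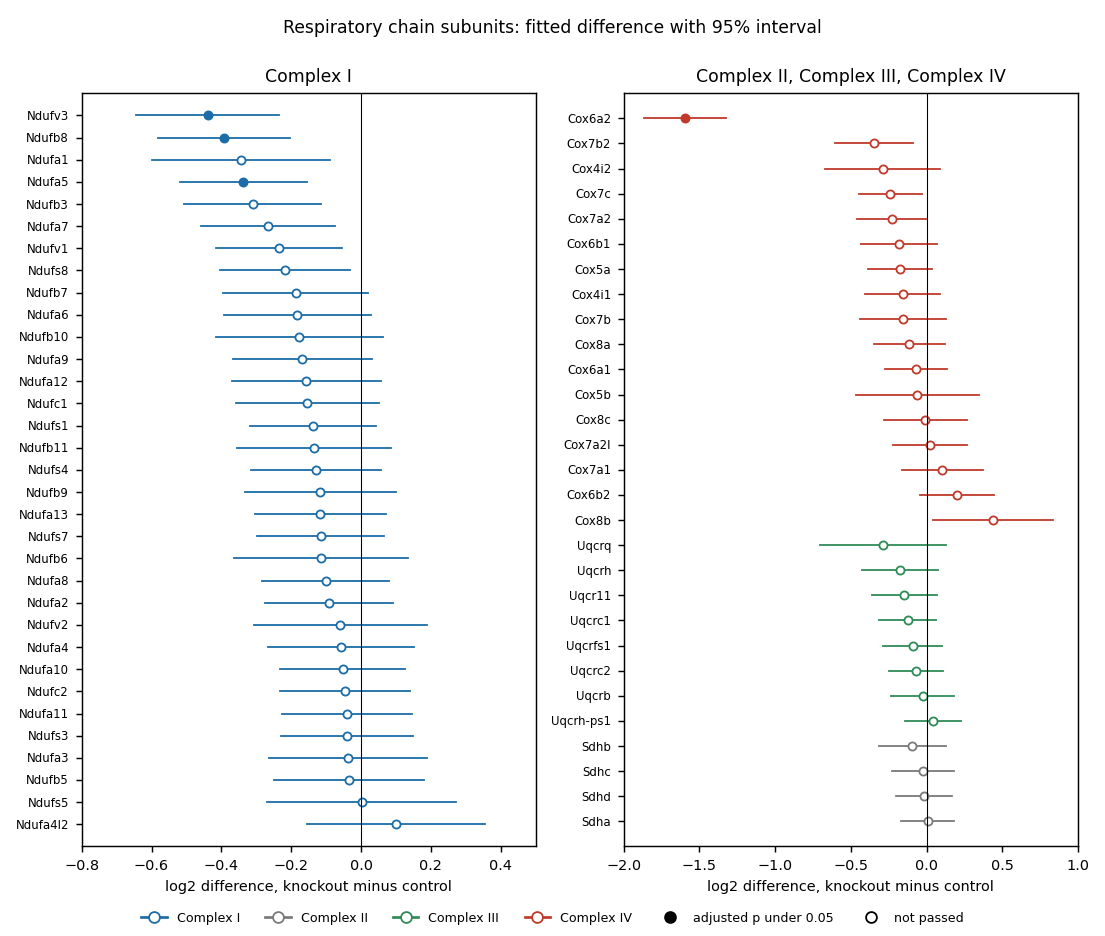
Fitted log2 difference, arrays labelled knockout minus controls, for each of the 62 subunits with its 95% interval from the limma model with sex; colours give the complex and filled points passed an adjusted p of 0.05. Cox6a2 at -1.60 stands far from the rest, and 31 of 33 complex I subunits lie left of 0.

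Promoters of respiratory chain genes are known as CpG-rich, as those of broadly expressed genes often are, and as carrying sites for Nrf1 and for Ets factors such as Gabpa. The 250 bases before the transcription start were read from RefSeq's promoters of GRCm38.p6, in which 49 of 62 members had an entry. The median window held 14 CpG dinucleotides and 56% G plus C over the members' 51 starts, against 6 and 52.4% over all 32851 starts. Motifs of 7 letters, none containing another, were searched on both strands. The Nrf1 core GCATGCG was in 5 of 49 members (10.2%), against 3.02% of all windows, and the Ets core CCGGAAG in 8 (16.3%), against 6.91%. The estrogen-related receptor core AAGGTCA was in 1 member (2.04%) and Yy1's AAGATGG in 0, against 4.08% and 4.49% of all windows. The Nrf1 and Ets motifs each contain a CpG, and those of the estrogen-related receptor and Yy1 contain none. The part of the members' higher CpG content in these shares was not tested. A match is a run of letters only, and a window without a match says nothing about a factor.

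The complex I genes Ndufv3 and Ndufb8, which fell, show the CpG-rich form. Capitals mark each CpG.
Ndufv3 (chr17:31519865-31520114, + strand): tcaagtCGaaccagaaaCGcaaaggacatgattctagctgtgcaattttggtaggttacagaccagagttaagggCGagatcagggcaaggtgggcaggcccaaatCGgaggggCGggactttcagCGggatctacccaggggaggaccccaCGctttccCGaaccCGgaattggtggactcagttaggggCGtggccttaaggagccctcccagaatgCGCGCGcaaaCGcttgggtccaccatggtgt
Ndufb8 (chr19:44555443-44555692, - strand): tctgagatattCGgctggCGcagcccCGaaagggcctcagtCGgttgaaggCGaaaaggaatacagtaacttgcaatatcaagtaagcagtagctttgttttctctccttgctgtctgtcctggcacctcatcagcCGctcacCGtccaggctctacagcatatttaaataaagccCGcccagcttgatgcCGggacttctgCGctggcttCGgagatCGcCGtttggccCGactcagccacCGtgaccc
These windows hold 14 and 15 CpG and none of the 4 motifs. Values of both genes follow with complex I.

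Cox6a2, the isoform of cytochrome c oxidase subunit VIa known from heart and skeletal muscle (Entrez gene 12862), showed the largest change. Its log2 values were 3.08, 3.53 and 3.22 on knockout-labelled arrays 1, 3 and 5, and 5.07, 4.71 and 4.83 on controls 2, 4 and 6. The groups lay far apart, with every knockout-labelled array more than 1 log2 unit below every control, in both sexes. The group means were 3.28 ± 0.23 and 4.87 ± 0.18 (SD, n = 3), and the log2 difference of -1.60 ± 0.11 (SE) passed in limma at an adjusted p of 0.0018. This is a 3.02-fold lower level. Since 2 of the 3 knockout-labelled values lay under the dim limit, the fall with those values set to that limit was at least 2.80-fold. By p, Cox6a2 ranked 36 of 22180 genes. Leaving out arrays singly kept the call (highest adjusted p 0.017), and without controls 2 and 6 together the difference was -1.63 ± 0.20, with an adjusted p of 0.21. Its widely expressed partner Cox6a1 read 11.90, 12.05 and 11.98 on knockout-labelled arrays 1, 3 and 5 and 12.16, 12.02 and 11.96 on controls 2, 4 and 6. Those groups overlapped, and the difference of -0.07 ± 0.09 (95% interval -0.28 to 0.14) did not pass (adjusted p = 0.72).

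Markers of other tissues and cells were set beside Cox6a2. None of 14 striated muscle markers was called by limma, 0 had an unadjusted p under 0.05, 9 lay below the dim limit, and their summed level was between 7.04 and 7.09 log2 on the knockout-labelled arrays and between 7.11 and 7.15 on the controls. The adipocyte list had 0 of 11 called (1 lower at an unadjusted p under 0.05), with a summed level of 9.48 to 10.16 log2 against 9.11 to 10.71. In the intercalated cell list of the collecting duct, 4 of 10 fell and none rose, where 3.08% of all genes fell and 4.12% rose. The anion exchanger Slc4a1 had the largest fall of that list. It read 4.46, 4.66 and 4.18 log2 on knockout-labelled arrays 1, 3 and 5 and 7.47, 6.67 and 6.90 on controls 2, 4 and 6. Markers of the list that did not pass differed little: Slc4a9 by 0.22, Foxi1 by 0.13, Atp6v1g3 by 0.04, Atp6v0d2 by -0.04, Atp6v1b1 by -0.25 and Slc26a4 by -0.30 log2. Principal cell markers fell in 6 of 8 cases. The part of any of these cells in the Cox6a2 difference was not tested, and in whole kidney fewer cells of a type and less RNA per cell cannot be told apart.

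**Figure D2:**
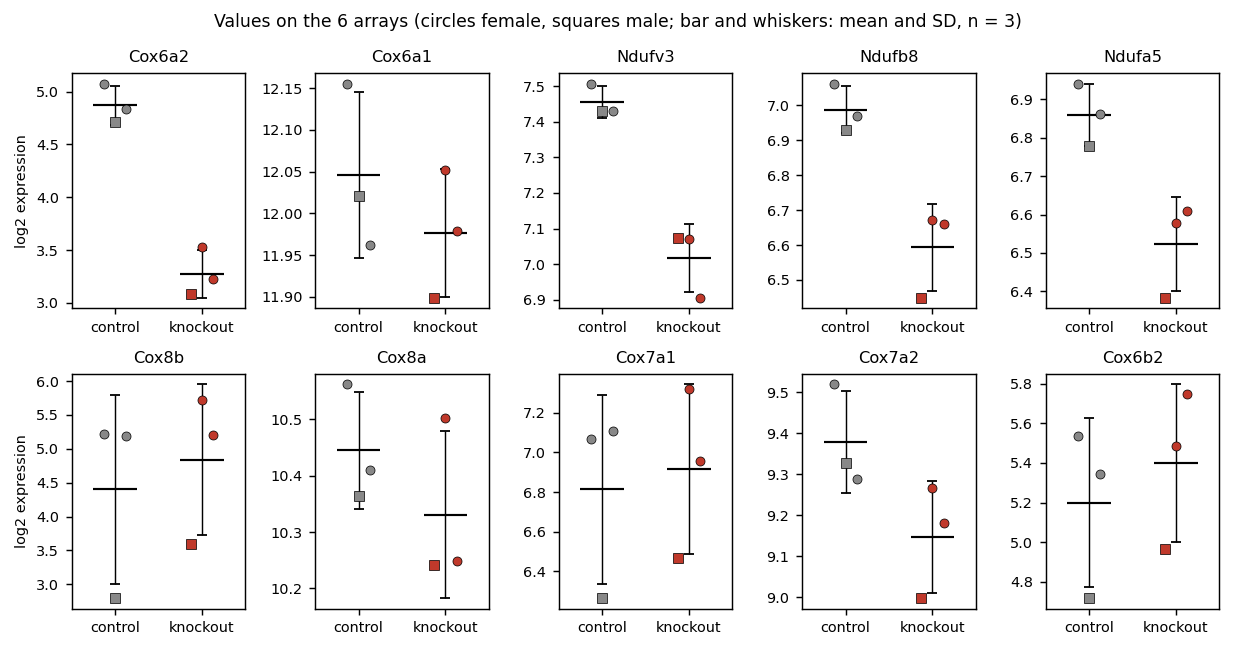
Log2 expression on each array for the called subunits and isoform pairs, each panel on its own axis; circles are females, squares males, and bars with whiskers the mean and SD of 3 arrays. The groups separate for Cox6a2, Ndufv3, Ndufb8 and Ndufa5, while Cox8b, Cox7a1 and Cox6b2 separate males from females.

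Complex I held the other 3 falls (9.09% of its 33 genes, against 3.08% of all genes). Ndufv3, an accessory subunit at the NADH-oxidising tip of the matrix arm (Entrez gene 78330), read 7.07, 7.07 and 6.90 log2 on knockout-labelled arrays 1, 3 and 5 and 7.51, 7.43 and 7.43 on controls 2, 4 and 6. No knockout-labelled value reached the lowest control, and the difference was -0.44 ± 0.09 (SE; limma adjusted p = 0.032), a 1.36-fold lower level. Ndufb8, an accessory subunit of the membrane arm, read 6.45, 6.67 and 6.66 on knockout-labelled arrays 1, 3 and 5 and 7.06, 6.93 and 6.97 on controls 2, 4 and 6, a difference of -0.39 ± 0.08 (adjusted p = 0.035). Knockout 1, the male, was lowest. Ndufa5, an accessory subunit of the matrix arm, read 6.38, 6.58 and 6.61 against 6.94, 6.78 and 6.86 in the same order, and differed by -0.34 ± 0.08 (adjusted p = 0.049). These groups did not overlap either, but all 3 calls were lost in every fit that omitted an array, where the highest adjusted p was 0.12 for Ndufv3, 0.12 for Ndufb8 and 0.15 for Ndufa5. They were also lost without sex in the model and without controls 2 and 6 together. For genotype, leaving out either male gives the same fit as females alone, so those count as a single check. Over those fits and the other alternatives the differences stayed between -0.48 and -0.36 for Ndufv3, -0.48 and -0.35 for Ndufb8, and -0.40 and -0.31 for Ndufa5.

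The rest of complex I lay on the same side with smaller differences. Of 33 subunits 31 were fitted below 0 (93.9%, against 51.6% of all genes), and the median was -0.13. All knockout-labelled arrays lay below all controls for 13 (39.4%, against 10.8% of all genes). Ndufa1, a small membrane-arm subunit coded on the X chromosome, ranked just after Ndufb8 by size of difference: 7.98, 8.27 and 8.06 on knockout-labelled arrays 1, 3 and 5 against 8.49, 8.52 and 8.33 on controls 2, 4 and 6. Its groups did not overlap, and its difference of -0.34 ± 0.11 did not pass (adjusted p = 0.12). Also outside the threshold were Ndufb3 (-0.31, adjusted p = 0.075), Ndufa7 (-0.27, 0.11), the flavin-binding core subunit Ndufv1 (-0.24, 0.12) and the iron-sulfur core subunit Ndufs8 (-0.22, 0.16). Core subunits and the remaining Nduf genes were alike in their medians, -0.13 over 6 core subunits and -0.13 over 27 others. Those others are mostly accessory subunits but include Ndufa4 and Ndufa4l2, described below. By symbol, the median was -0.11 over 14 Ndufa, -0.16 over 8 Ndufb, -0.10 over 2 Ndufc and -0.12 over 6 Ndufs subunits. It was -0.24 over the 3 Ndufv subunits of the NADH-oxidising tip, the called Ndufv3 among them. Towards 0 lay Ndufs3 (-0.04), Ndufb5 (-0.03) and Ndufs5, at 0.0017. The highest fitted value belonged to Ndufa4l2, a paralogue of Ndufa4 known as a hypoxia-induced gene, at 0.10 ± 0.11 (95% interval -0.16 to 0.36). Ndufa4 itself, which sorts with complex I by its symbol and is now assigned to complex IV, stood at -0.06 ± 0.09. Its values were 10.84, 11.07 and 10.99 against 11.05, 11.06 and 10.97 in the order used above, and those of Ndufa4l2 4.84, 5.11 and 4.88 against 4.78, 4.70 and 5.04. Both pairs of groups overlapped. Some members have a second, dimmer cluster that was not used: it gave -0.56 for Ndufa12 (-0.16 in the one used) and -0.48 for Ndufa8 (-0.10), neither passing, and 0.0041 for Ndufa11 (-0.04).

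Complex II, the succinate dehydrogenase that also serves the citric acid cycle, showed the smallest median, -0.02 over its 4 subunits. None passed in limma, 0 had an unadjusted p under 0.05, and no subunit's groups were separate. The iron-sulfur subunit Sdhb read 9.41, 9.71 and 9.51 log2 on knockout-labelled arrays 1, 3 and 5 and 9.72, 9.60 and 9.59 on controls 2, 4 and 6, a difference of -0.09 ± 0.09. The membrane anchor Sdhc read 9.53, 9.67 and 9.62 against 9.66, 9.68 and 9.54 in that order. The other anchor, Sdhd, read 9.70, 9.89 and 9.80 against 9.88, 9.76 and 9.79. For the anchors the differences were -0.02 ± 0.09 and -0.02 ± 0.08. The flavoprotein Sdha stood at 11.14 ± 0.03 against 11.13 ± 0.03 (SD, n = 3), a difference of 0.01 with a 95% interval of -0.17 to 0.18. With single arrays left out the median lay between -0.061 (without control 6) and 0.0048 (without knockout 1 or control 4). Intervals of this width leave room for a difference as large as the complex I median.

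Complex III had a median of -0.11, with 7 of 8 members fitted below 0, 0 called, 0 with an unadjusted limma p under 0.05 and no separate groups. Without knockout 1 or without control 4 that median was -0.062. Its largest differences were in small subunits. Uqcrq read 4.54, 5.04 and 4.78 log2 on knockout-labelled arrays 1, 3 and 5 and 5.13, 5.30 and 4.8 on controls 2, 4 and 6 (-0.29 ± 0.17, adjusted p = 0.41). The hinge protein Uqcrh read 7.61, 8.09 and 8.07 against 8.16, 8.06 and 8.08 in the same order, where only knockout 1 lay apart (-0.18 ± 0.11, adjusted p = 0.40). Uqcr11 read 6.75, 6.86 and 6.90 against 7.07, 7.0 and 6.88 (-0.15 ± 0.09, adjusted p = 0.41). The core proteins Uqcrc1 and Uqcrc2 and the Rieske iron-sulfur protein Uqcrfs1 differed by -0.12, -0.07 and -0.09. The symbol rule also took in a pseudogene, Uqcrh-ps1, whose mean lay below the dim limit.

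Complex IV had a median of -0.16 and the widest spread, from Cox6a2 at -1.60 to Cox8b at 0.44. That median rested on single arrays: it was -0.074 without knockout 5, -0.090 without control 2, -0.097 without knockout 1 or control 4, and -0.24 without control 6. Among the widely expressed forms, Cox7a2 had separate groups without passing: 9.0, 9.26 and 9.18 log2 on knockout-labelled arrays 1, 3 and 5 and 9.52, 9.33 and 9.29 on controls 2, 4 and 6 (-0.23 ± 0.10, adjusted p = 0.22). Cox4i1 read 9.62, 10.01 and 9.94 against 10.22, 9.90 and 9.92 in that order (-0.16 ± 0.10), Cox6b1 9.47, 9.77 and 9.63 against 9.92, 9.82 and 9.69 (-0.18 ± 0.10). Cox8a read 10.24, 10.50 and 10.25 against 10.56, 10.36 and 10.41 (-0.11 ± 0.10), and Cox7b 9.23, 9.69 and 9.28 against 9.66, 9.40 and 9.60 (-0.16 ± 0.12). In each of these 4 the groups overlapped and knockout 1 was the lowest array. Cox4i2, the isoform known from lung and from hypoxic cells, read 4.13, 4.34 and 4.23 against 4.5, 4.86 and 4.20 (-0.29 ± 0.16, adjusted p = 0.36). The supercomplex factor Cox7a2l read 5.75, 6.18 and 6.08 against 6.05, 5.97 and 5.93, a difference of 0.02 ± 0.10 whose sign turned with quantile normalization or median centring. Cox7b2 and Cox8c, both known from testis, had means below the dim limit, where an order of arrays carries little. Cox7b2 read 2.41, 2.44 and 2.45 against 2.62, 2.74 and 2.98, and is counted among the 16 members with separate groups (-0.35 ± 0.11, adjusted p = 0.12). Cox8c read 2.19, 1.92 and 2.22 against 2.04, 2.07 and 2.24, and its groups overlapped.

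Other tissue isoforms of complex IV, namely Cox8b, Cox7a1 and Cox6b2, differed by sex, while Cox4i2, Cox7b2 and Cox8c did not pass (limma adjusted p = 0.68, 0.88 and 0.95). Of the 62 members 4 passed between males and females in the same model (limma, adjusted over all genes), where 1.87% of all genes passed. Of those 4 members, 3 were lower in males (background 0.618%) and 1, the dim Uqcrh-ps1, was higher (background 1.25%). As a set the members also leaned low in males: 53 of 62 were fitted lower, against 54.9% of all genes. Their median difference by sex was -0.11, against -0.02 over all genes. Cox8b, the subunit VIII isoform of heart, muscle and brown fat (Entrez gene 12869), read 3.59 and 2.79 log2 on the males, knockout 1 and control 4, and 5.72, 5.21, 5.22 and 5.19 on the females, knockouts 3 and 5 and controls 2 and 6. Male and female values were far apart in both groups, by -2.14 ± 0.18 (SE; limma adjusted p = 0.0041), a fitted 4.41-fold lower level in males. Control 4 lay under the dim limit, and with it set to that limit the fall was at least 3.68-fold. Cox7a1, the muscle isoform of subunit VIIa, read 6.47 and 6.27 on those males and 7.32, 6.96, 7.07 and 7.11 on those females (-0.75 ± 0.12, adjusted p = 0.039). Cox6b2, a subunit VIb isoform known from testis, read 4.96 and 4.72 on the males and 5.49, 5.75, 5.53 and 5.34 on the females in the same order (-0.69 ± 0.11, adjusted p = 0.039). No male value reached any female value for these 3 genes. The Cox8b call survived each omission of an array (highest adjusted p 0.030), but a fit without knockout 1 or control 4 holds 1 male, assumed to vary like the other arrays. Cox7a1 lost its call in 5 of 6 such fits (all but the one without knockout 5; adjusted p up to 0.21) and Cox6b2 in all 6 (up to 0.19). With 2 male arrays in all, the male spread is poorly known.

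The windows before Cox8b and Cox7a1 are shown with those of their widely expressed partners Cox8a and Cox7a2, with CpG again in capitals.
Cox8a (chr19:7217617-7217866, - strand): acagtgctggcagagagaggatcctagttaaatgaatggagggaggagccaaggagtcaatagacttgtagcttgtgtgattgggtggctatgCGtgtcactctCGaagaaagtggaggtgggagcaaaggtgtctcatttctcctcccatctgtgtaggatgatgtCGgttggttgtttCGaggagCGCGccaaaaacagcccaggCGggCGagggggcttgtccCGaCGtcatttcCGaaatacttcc
Cox8b (chr7:140900447-140900696, - strand): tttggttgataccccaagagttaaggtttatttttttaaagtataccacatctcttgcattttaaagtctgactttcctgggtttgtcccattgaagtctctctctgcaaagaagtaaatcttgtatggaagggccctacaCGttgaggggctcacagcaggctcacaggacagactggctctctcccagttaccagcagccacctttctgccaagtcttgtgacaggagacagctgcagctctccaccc
Cox7a2 (chr9:79759854-79760103, - strand): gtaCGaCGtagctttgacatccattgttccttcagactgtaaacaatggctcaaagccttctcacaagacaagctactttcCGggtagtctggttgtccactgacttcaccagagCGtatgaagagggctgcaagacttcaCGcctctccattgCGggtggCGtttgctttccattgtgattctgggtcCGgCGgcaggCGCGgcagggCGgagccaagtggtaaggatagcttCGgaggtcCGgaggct
Cox7a1 (chr7:30183921-30184170, + strand): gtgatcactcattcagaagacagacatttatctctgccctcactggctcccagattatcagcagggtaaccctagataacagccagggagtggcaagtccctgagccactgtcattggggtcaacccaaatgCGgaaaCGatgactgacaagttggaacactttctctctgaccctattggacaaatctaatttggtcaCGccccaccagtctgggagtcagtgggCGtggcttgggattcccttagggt
Cox8b had 1 CpG where Cox8a had 11, and Cox7a1 had 4 where Cox7a2 had 14. In the pair of subunit VIb, Cox6b1 had 14 and Cox6b2 8, while the order was the reverse for Cox7b with 5 and Cox7b2 with 9. None of the windows printed here held any of the 4 motifs.

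Cell markers moved with sex beside these isoforms, in most cell types listed. All 10 intercalated cell, 12 macrophage, 7 cycling cell and 6 distal convoluted tubule markers were fitted lower in males, against 54.9% of all genes. So were 8 of 9 thick ascending limb, 7 of 8 principal cell and 6 of 9 pericyte and vascular smooth muscle markers. Of 15 proximal tubule markers 3 were fitted lower, and 2 passed in limma as higher. All 10 fibroblast and matrix markers were fitted lower in males and 3 of them passed in limma, Col1a1, Lox and Vim, as did 1 of 12 macrophage markers, Cd14. The summed fibroblast level was 11.03 and 10.18 log2 on the males knockout 1 and control 4, and 11.42, 11.48, 10.72 and 10.64 on the females knockouts 3 and 5 and controls 2 and 6. Of 11 adipocyte markers 10 were fitted lower in males, against 54.9% of all genes, 0 passed in limma (2 lower at an unadjusted p under 0.05), and control 4, lowest for Cox8b, was the lowest array for 8. Their summed level was 9.72 and 9.11 on the males and 10.16, 9.48, 10.71 and 10.37 on the females in the same order, so male knockout 1 lay above female knockout 5. Of 14 striated muscle markers 6 were fitted lower in males and 0 passed in limma by sex, with 0 lower at an unadjusted p under 0.05. The part of these cells in the sex differences was not tested.

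By genotype, Cox8b differed by 0.44 ± 0.17 (adjusted p = 0.18), and passed as higher in 1 fit, that without knockout 5 (0.64, adjusted p = 0.0496). Cox7a1 and Cox6b2 differed by 0.10 ± 0.11 and 0.20 ± 0.10 and did not pass.

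The lean toward lower values was uneven over the arrays. Taking for each of the 59 members above the dim limit its value minus its control mean, knockout 1 had a median of -0.24, knockout 5 of -0.12 and knockout 3 of -0.03, against 0.08 on control 2, -0.03 on control 6 and -0.05 on control 4. Knockout 3 thus lay inside the range of the controls. Knockout 1, a male, was the lowest of the 6 arrays for 43 of 59 members and control 2, a female, was the highest for 34. Over all 15047 genes at or above the dim limit the same medians lay between -0.01 and 0.02, values that normalization across arrays sets near 0 and that check nothing about the subunits. For complex IV the median ran from -0.33 on knockout 1 to 0.14 on control 2, and for complex I from -0.25 to 0.06 on the same arrays.

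**Figure D3:**
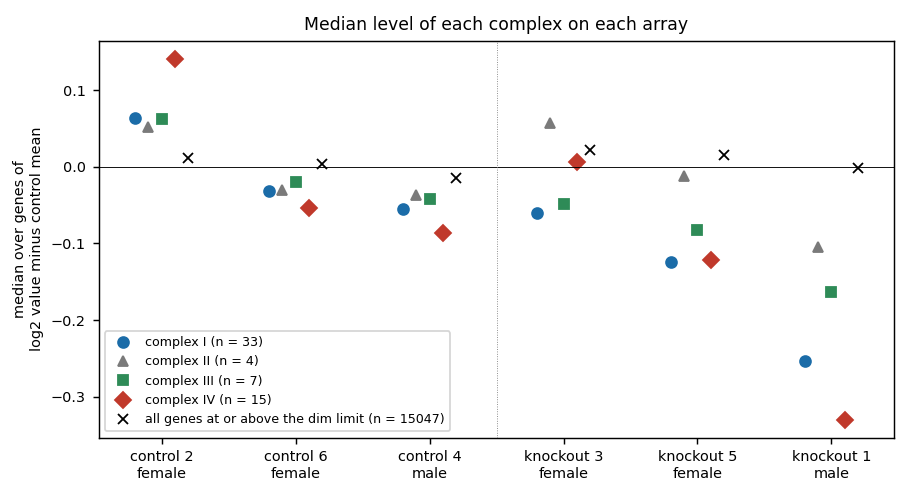
Median over the members of each complex of the log2 value minus the gene's control mean, by array (members above the dim limit; crosses are all 15047 genes above it). Knockout 1 is lowest for every complex, complex IV reaching -0.33, and knockout 3 is the highest of the knockout-labelled arrays for every complex.

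Within each sex the difference had the same sign for complexes I, III and IV. Between the males, 1 array each and so with no replicate, 53 of 59 members were lower on knockout 1 than on control 4 (89.8%, against 49.0% of all genes at or above the dim limit), with a median of -0.19. In the females, 2 against 2, 45 of 59 were lower (76.3%, against 47.7%), with a median of -0.08. Both knockout-labelled females lay below both control females for 25 members (42.4%, against 27.2%). For complex I the medians were -0.19 in males and -0.11 in females, and for complex IV -0.21 and -0.10. Complex II read -0.10 in males and 0.0048 in females, with 1 of 4 subunits lower there. An interaction of genotype with sex, fitted with 2 degrees of freedom left, passed for none of the 62 members in limma (smallest adjusted p = 0.67; 2 members at an unadjusted p under 0.05), and for 0.00451% of all genes.

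The other genes of the pathway, from lists written for this comparison, also leaned low, and no test compared them with the subunits. Of 41 assembly factors of complexes I to IV, 39 were fitted below 0 (95.1%, against 51.6% of all genes), with a median of -0.17. All knockout-labelled arrays lay below all controls for 17 (41.5%, against 10.8% of all genes). Of all genes 3.08% fell and 4.12% rose, and of the 41 factors 2 fell and none rose. The falls were Acad9, a complex I assembly factor (-0.48 ± 0.08, adjusted p = 0.020), and Coa6, a copper-handling complex IV assembly factor (-0.41 ± 0.08, adjusted p = 0.036). Acad9 read 8.10, 7.75 and 7.69 log2 on knockout-labelled arrays 1, 3 and 5 and 8.16, 8.54 and 8.27 on controls 2, 4 and 6; the groups did not overlap. Here knockout 1 was the highest of its group, unlike in most subunits. Among 15 regulators of mitochondrial biogenesis 1 fell, the coactivator Ppargc1b, with 5.87, 5.92 and 6.04 against 6.42, 6.72 and 6.49 in that order (-0.60 ± 0.10, adjusted p = 0.024), and the median was -0.19. Without controls 2 and 6 together the differences were -0.44 for Acad9, -0.35 for Coa6 and -0.85 for Ppargc1b, with no call. Acad9 and Coa6 lost their calls in all 6 fits that omitted an array (highest adjusted p 0.081 and 0.12) and Ppargc1b in 5 of 6 fits (up to 0.085), all but the one without knockout 5. The coactivator Ppargc1a differed by -0.19 ± 0.09 (adjusted p = 0.29) and the mitochondrial DNA factor Tfam by -0.23 ± 0.08 (adjusted p = 0.16).

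ATP synthase, which uses the proton gradient, and the citric acid cycle, which supplies NADH, had medians of -0.07 each. None of 17 ATP synthase genes passed in limma (2 lower at an unadjusted p under 0.05), and none of 12 cycle enzymes did (4 lower at an unadjusted p under 0.05). Over all 22180 genes, 2324 were lower at that unadjusted p. Cytochrome c (Cycs), the complex III subunit cytochrome c1 (Cyc1) and the acyl carrier subunit Ndufab1, which the symbol rule leaves out, differed by -0.01, -0.18 and 0.01, with 0 called in limma and 0 at an unadjusted p under 0.05. Of 15 hypoxia-induced genes Egln3 rose (0.61 ± 0.12, adjusted p = 0.034) and Pdk1 fell (-0.38 ± 0.08, adjusted p = 0.041), with a median of -0.01. Of all genes 4.12% rose and 3.08% fell. Egln3 lost its call without control 2, control 6, knockout 3 or knockout 5 (adjusted p up to 0.11) and Pdk1 in all 6 such fits (up to 0.14). Without controls 2 and 6 together they stood at 0.37 (adjusted p = 0.50) and -0.30 (0.58). Mitochondrially coded subunits were not analysed here.

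**Figure D4:**
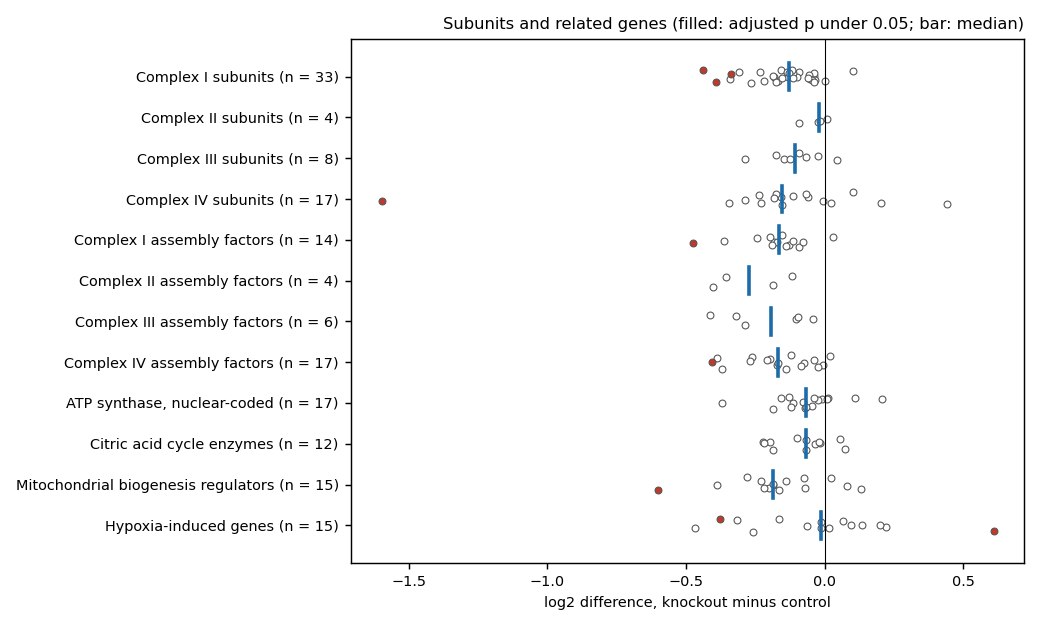
Log2 difference, arrays labelled knockout minus controls, for each gene of the 4 complexes and of related lists; filled points passed an adjusted p of 0.05 and blue bars are medians, with vertical jitter for legibility. Assembly factors of complex II (-0.27) and complex III (-0.19) have lower medians than the subunits of those complexes.

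Cell type markers moved beside the subunits, where 3.08% of all genes fell and 4.12% rose. Of 15 proximal tubule markers 4 fell and none rose (median -0.34), with a summed level of 14.38 to 14.95 log2 on the knockout-labelled arrays and 15.00 to 15.09 on the controls. Knockout 1, lowest for most subunits, had the highest proximal tubule sum of its group. It is also the only male of that group, and 2 markers of the list passed in limma as higher in males. They were Slc7a13 (6.42 log2) and Slc22a6 (0.86), so the order of that sum cannot be told apart from sex. Of 9 thick ascending limb markers 2 fell and 1 rose (summed level 13.10 to 13.34 against 13.24 to 13.38). Macrophage markers rose in 8 of 12 cases (summed level 10.01 to 10.74 against 9.11 to 9.26), fibroblast and matrix markers in 8 of 10 (11.03 to 11.48 against 10.18 to 10.72) and cycling cell markers in 7 of 7 (8.11 to 9.03 against 6.91 to 7.02). The part of these cells in the subunits' difference was not tested.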

How the data were processed

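The authors deposited 1 log2 value for each transcript cluster and array. The submitters' processing notes name RMA, R 3.4.0 and limma, without roles. The genome build and any filter were not given in the sources used here. RNA input was 400 ng per the labels. Array medians lay between 3.81 and 3.87, and Pearson's r between arrays, across genes, between 0.979 and 0.995. Of 41345 clusters 23521 had 1 gene symbol in the platform annotation, 1814 several and 16010 none. RefSeq (GRCm38.p6) matched 23328 of the 23521 by gene identifier and changed 0 symbols. For 1082 genes with several clusters the one with the highest mean was used, which applies to 5 members. Cox6c, Ndufb2, Ndufb4, Ndufs6 and Uqcr10 lie in clusters with several symbols and are not analysed here.

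Differences were fitted with limma 3.58.1 in R 4.3.3 with genotype and sex (3 residual and 6.72 total degrees of freedom), with Benjamini-Hochberg adjustment over all 22180 genes; the fit was tested on simulated data. Errors are moderated standard errors and intervals are at 95%. Only 6 arrays limit the precision. Values on every array are given, by rule, for called members, the 3 largest differences of each complex and the isoform families. Other genes are at most 3 of a list with the smallest p, with Pax2, Pax8, Ucp1, Ppargc1a and Tfam; others named were chosen after their values were seen, as was the count of CpG. A summed level is log2 of the summed linear values of a list. The members and lists were chosen with earlier results of these data known. Alternatives were a model without sex, females only, arrays left out, other priors, weights and scalings, a dim filter, averaged clusters and every row tested.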

Additional observations from a re-analysis of the deposited data

How the results depend on the processing

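No paired analysis was possible because the groups share no replicate number. The count of called genes, 1596 in the model with sex, was 471 without sex in the model, 302 with every row tested, 0 without controls 2 and 6 together, and between 344 and 1249 with single arrays left out. Called members numbered 4; they were 1 without sex in the model, in females only and with every row tested, 0 without controls 2 and 6 together, and 1 to 2 with single arrays left out. Complex I had 3 calls and 0 in each of those fits. Complex IV had 1 call, 0 without controls 2 and 6 together, and 1 to 2 with single arrays left out. By sex, 4 members passed, and 1 to 2 with single arrays left out. The medians of complexes I, III and IV stayed below 0 in all 16 alternatives. They lay between -0.19 and -0.11, -0.14 and -0.062, and -0.24 and -0.074. Part of that was fixed in advance. With balanced groups the model without sex leaves each difference unchanged, as do a trended robust prior and every row tested. For genotype, the fits in females only, without knockout 1 and without control 4 are the same. The fit without controls 2 and 6 together gives knockout 1 minus control 4, the difference between the males reported above. The median of complex II was -0.10 without controls 2 and 6 together and 0.0048 in females. The count of called members was 4 with median centring, array weights or the dim filter, 5 with quantile normalization or a trended robust prior, and 3 with averaged clusters. Among the 26 members named by rule, signs turned only in some near 0: Cox7a2l (-0.22 without controls 2 and 6 together, -0.020 with quantile normalization, -0.012 with median centring, and -0.046 to 0.14 with single arrays left out), Cox8c (0.12 without controls 2 and 6 together, and -0.074 to 0.097 with single arrays left out), Ndufa4 (0.020 in females, and -0.10 to 0.020), Sdhc (0.039 in females, and -0.075 to 0.039) and Sdhd (0.0048 in females, 0.0016 with quantile normalization, and -0.049 to 0.0048). With 6 arrays, differences of the size seen in most subunits did not pass singly.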
